A study of Sus scrofa with 12 samples.

Results

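The 9 genes described here, PRRX1, MEOX1, MEOX2, TWIST1, TWIST2, TCF21, OSR1, OSR2 and TBX15, encode transcription factors of mesenchymal progenitor cells, and they were taken by name from the 28210 genes of the pig RefSeq table. The values came from longissimus muscle of 2-week-old piglets of a commercial lean breed, Large White (LW), and of the Chinese breed Meishan (MS). H3K27ac BL-HiChIP, which ligates DNA fragments lying close together in the nucleus and enriches those carrying the acetylation mark of active enhancers and promoters, gave 2 lists of chromatin loops per breed. GRID-seq, which ligates RNA to the DNA beside it in fixed nuclei, gave 2 lists per breed of chromatin-associated RNAs and the 1-kb DNA bins they lay on. No animal was treated and no gene was altered, so breed was the only factor. The labels do not say whether replicates were separate animals, and p-values therefore measure the spread between libraries, which may be technical.

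In skeletal muscle, mesenchymal progenitors (the fibro-adipogenic progenitors and fibroblasts between the fibres) produce connective tissue and fat and support satellite cells during repair. PRRX1 is a homeodomain factor of limb mesenchyme, MEOX1 and MEOX2 are homeodomain factors of the somites, TWIST1, TWIST2 and TCF21 are basic helix-loop-helix factors that pair with E-proteins, OSR1 and OSR2 are zinc-finger factors of connective tissue, and TBX15 is a T-box factor. TBX15 differs from the others in that it is also active in muscle fibres, mainly glycolytic ones.

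A loop was given to a gene when 1 of its 5-kb anchors lay no more than 1 kb from the lower or upper end of that gene. Its strength is the −log10 of the deposited false discovery rate (FDR), which starts near 2 because the lists end at an FDR of 0.01, and the loop score of a gene is the sum of these strengths. Loops were called only from H3K27ac peaks, and only where the contact passed the FDR. A gene without a loop may thus still have acetylated chromatin, at its own ends or elsewhere. The lists held 57028 and 43282 loops for LW against 45061 and 33353 for MS, and for RNA 7172517 to 9943666 reads of 519 to 681 RNAs per library. All 10 muscle fibre genes examined as a check of the tissue, among them ACTA1, CKM and TTN, had a loop in every library.

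The genes fell into those with many loops, those with few and those with none. A loop was present at 6 and 6 of the 9 genes in LW against 6 and 5 in MS. Over all genes of the table the shares with a loop were 46.1% and 40.0% in LW against 41.7% and 36.0% in MS, and over protein-coding genes 52.9%, 46.6%, 48.4% and 42.0%. PRRX1, MEOX1, MEOX2, OSR2 and TBX15 had a loop in all 4 libraries, which 31.7% of protein-coding genes had, OSR1 had one in 3 libraries, and TWIST1, TWIST2 and TCF21 had none under this rule. The 6 of 9 genes with a loop in any library compare with 54.7% of all genes and 62.6% of protein-coding genes, and with so few genes these shares are close.

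**Figure D1:**
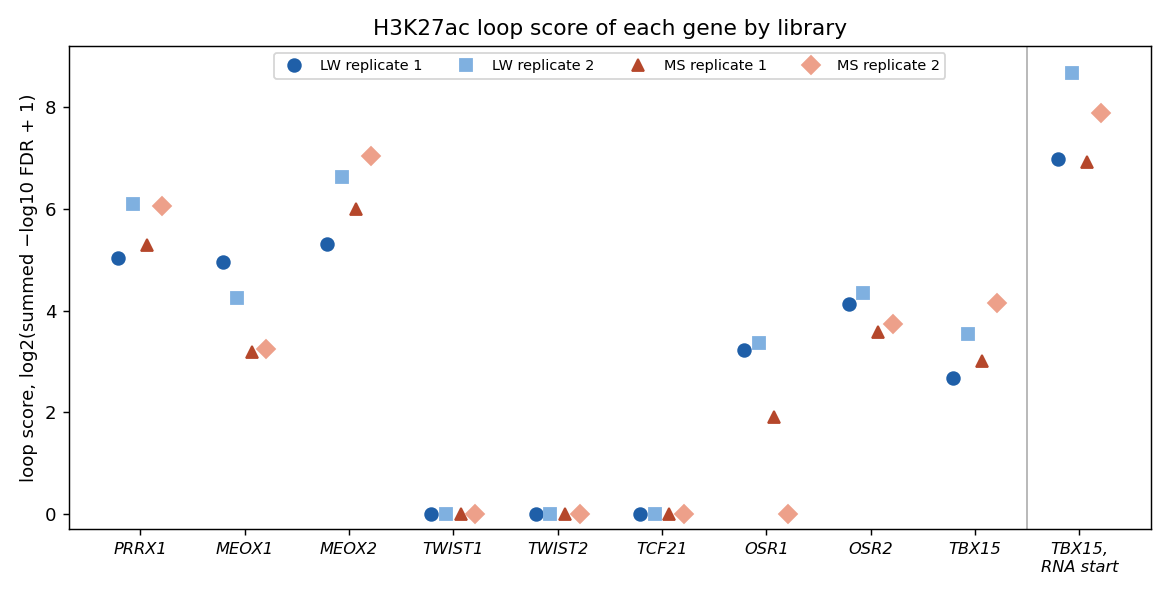
Loop score of each gene, as log2(summed −log10 FDR + 1), in each of the 4 H3K27ac BL-HiChIP libraries, with 1 symbol per library. MEOX2 and PRRX1 scored highest of the 9 genes, TWIST1, TWIST2 and TCF21 lay at 0, and the symbols at the right show TBX15 when the bin holding the start of its RNA is used in place of its RefSeq ends.

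PRRX1 (chr4:80427682-80502689 in Sscrofa11.1) had 8 and 12 loops in LW against 9 and 11 in MS. Its loop scores were 31.8 and 67.6 in LW against 37.9 and 65.4 in MS. The breeds overlapped, and replicate 2 was the higher library in each. These scores lay at the 81.4 to 92.3 percentile of the genes with a loop.

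All 21 different loops of PRRX1 started from 1 bin, chr4:80500001-80505000, at the upper end of the gene, and none had an anchor within 1 kb of the lower end. The strongest contact ran back through the gene toward that lower end, 65 to 70 kb away, where it met the uncharacterized locus LOC106510093. Its strength was 8.64 and 14.4 in LW against 11.6 and 24.6 in MS, if anchors shifted by 1 bin are counted as the same contact. A contact 20 to 25 kb away within the gene was also found in all 4 libraries, at 4.9 and 5.07 in LW against 2.04 and 4.97 in MS, as was one 5 to 10 kb away at 3.9, 13.0, 2.45 and 6.64. A 5-kb window would add a bin near the lower end, whose 5-kb loop inside the gene was in all 4 libraries at 11.3 and 20.7 in LW against 4.05 and 48.9 in MS.

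Outside the gene, PRRX1 was joined to 3 gene ends in more than 1 library. The first was GORAB, a Golgi protein gene, over 90 kb with strengths of 3.37 and 5.21 in LW against of 2.57 in MS replicate 2. The second was METTL11B, a methyltransferase gene, over 430 kb with strengths of 3.33 and 9.55 in LW against 6.37 in MS replicate 1. The third was SCYL3, a pseudokinase gene, over 630 kb in LW replicate 2 and MS replicate 1, at 3.7 and 2.83. Each of the 3 was seen in both breeds, and none in every library under the 1-kb rule. The bin near the lower end that a 5-kb window adds was also joined to all 3. Its strengths were 4.17 in LW replicate 1 and 2.07 in MS replicate 2 for METTL11B. They were 6.44 in MS replicate 2 for SCYL3 and 3.07 in LW replicate 1 for GORAB. With that bin, METTL11B was reached in every library. METTL11B also had the looped bins most like those of PRRX1, among genes without an end in the same bins as PRRX1. It shared 7 bins of 27 in either set, 25.9%, over the union of the 4 libraries.

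MEOX2 (chr9:84945178-85009939) scored highest of the 9 genes in every library. It had 5 and 10 loops in LW against 9 and 12 in MS, and scores of 38.7 and 98.2 in LW against 63.1 and 130.4 in MS. These were the 86.1 to 97.3 percentiles of genes with a loop, and the breeds overlapped. Its loops started from the neighbouring bins 85005001-85010000 and 85010001-85015000 at the upper end of the gene, next to the uncharacterized locus LOC106504971.

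The strongest contact of MEOX2 was also the strongest of any of the 9 genes under the 1-kb rule. It reached 390 to 395 kb to bin chr9:85400001-85405000, inside the long non-coding RNA gene LOC106504972, with strengths of 16.9 and 29.0 in LW against 21.1 and 39.0 in MS. On the other side, MEOX2 was joined to several bins inside AGMO, an ether lipid-cleaving enzyme gene. The contact 200 to 205 kb away was found in all 4 libraries at 6.53, 11.8, 2.85 and 4.66, and the contact 115 to 120 kb away at 18.6 in LW replicate 2 and at 9.02 and 17.9 in MS.

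Among the 76 different loops of the 9 genes, a 90-kb loop of MEOX2 was the only one present in all 4 libraries with both anchors in exactly the same bins, at 5.25 and 5.5 in LW against 2.4 and 8.21 in MS. LOC106504972 shared 5 of 19 looped bins with MEOX2, 26.3%, the largest share among genes without an end in the same bins as MEOX2. LOC106504971, with an end in such a bin, was left out of that comparison.

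MEOX1 (chr12:19431397-19452430) had 4 and 4 loops in LW against 2 and 3 in MS. The scores were 30.0 and 18.0 in LW against 8.05 and 8.45 in MS. The LW libraries lay above both MS libraries. The log2 fold change on the log2(score + 1) scale was 1.10 with a standard error of 0.77, and it did not pass (limma, Benjamini-Hochberg adjusted p = 0.992). The strongest contact in LW, 50 kb away with no gene end, had a strength of 14.2 and 5.87, against 2.58 in MS replicate 2. In MS the strongest loop was 40 kb long in replicate 1, at 5.76, and 15 kb long in replicate 2, at 3.12. That 15-kb loop was also in LW replicate 1, at 8.61. A 60-kb loop to the long non-coding RNA gene LOC110255997 was found in LW replicate 2 and MS replicate 2, at 2.33 and 2.76. The pseudogene LOC100737636 shared 5 of 13 looped bins with MEOX1, 38.5%, and LOC110255997 shared 4 of 13, 30.8%.

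**Figure D2:**
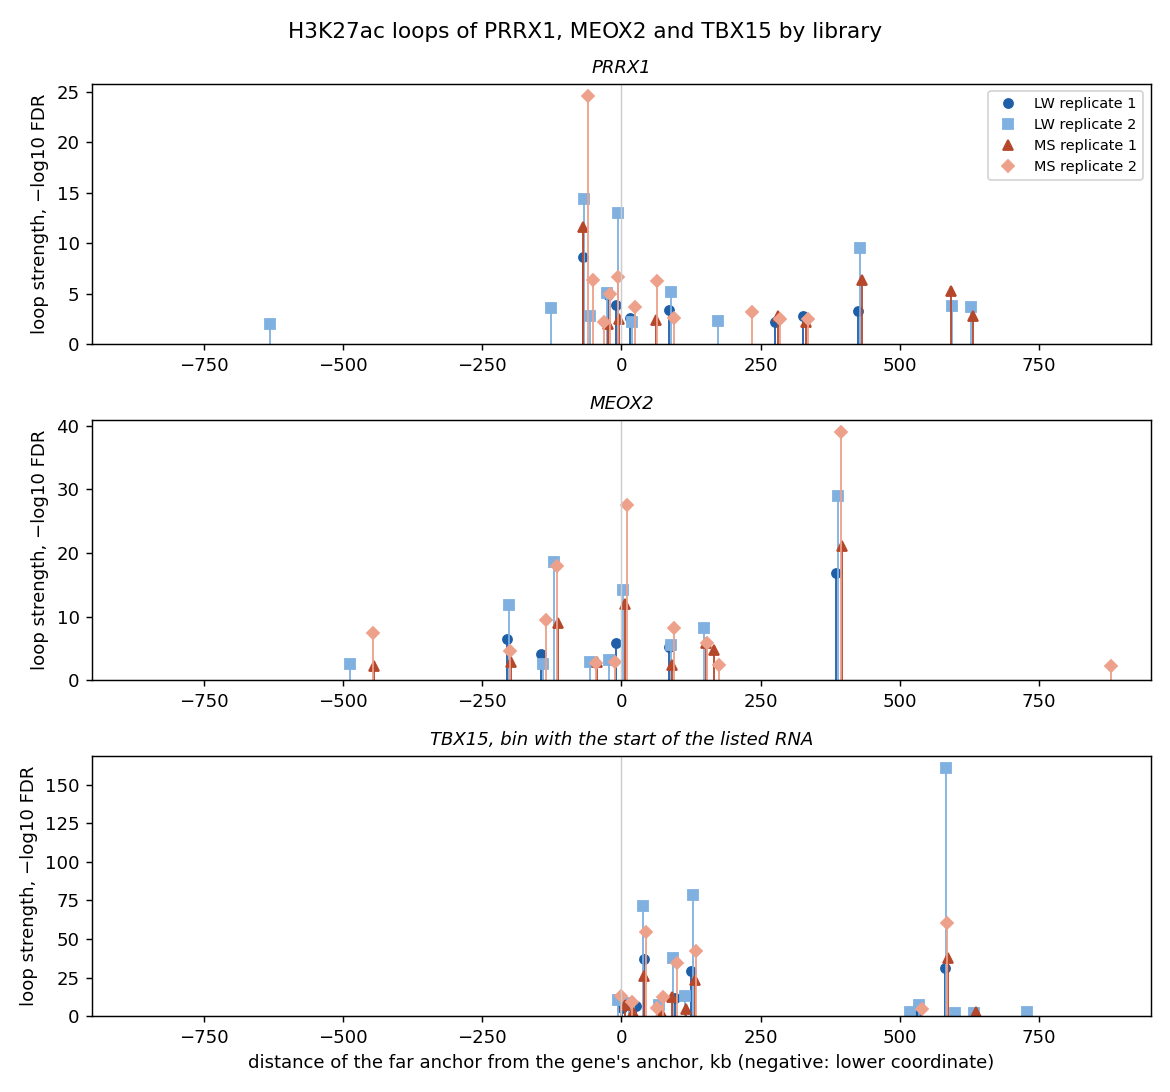
Loops of PRRX1, MEOX2 and the bin with the start of the TBX15 RNA, by the distance of the far anchor in kb (x axis, libraries shifted slightly sideways so that they can be told apart) and strength as −log10 FDR (y axis, a different scale in each panel). The PRRX1 contact 65 to 70 kb away, the MEOX2 contact 390 to 395 kb away and the TBX15 contact 580 to 585 kb away appear in all 4 libraries.

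OSR1 and OSR2 had weaker loops. OSR2 (chr4:37890200-37897935) had 5 and 5 loops in LW against 4 and 3 in MS, and scores of 16.6 and 19.2 in LW against 10.9 and 12.3 in MS. The LW libraries lay above the MS libraries, but after normalization they overlapped, with a log2 fold change of 0.24 and a standard error of 0.77. The longest loop spanned 790 kb into VPS13B, a lipid transfer protein gene next to OSR2, at 4.06 and 5.99 in LW against 2.54 in MS replicate 2. A 115-kb loop to the end of STK3, a kinase gene of the Hippo pathway, was found in LW replicate 2 and MS replicate 1, at 2.8 and 3.44. VPS13B shared 4 of 13 looped bins with OSR2, 30.8%.

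OSR1 was annotated over 396.6 kb (chr3:118368471-118765107), and its loops all lay at the upper end of that interval. It had 3 and 2 loops in LW against 1 and 0 in MS, with scores of 8.33 and 9.23 in LW against 2.74 and 0 in MS. The LW libraries were again the higher ones. The log2 fold change was 1.90 with a standard error of 0.83, and of the 9 genes OSR1 came nearest to the threshold for loops (limma, unadjusted p = 0.0578, Benjamini-Hochberg adjusted p = 0.959). The unadjusted p (limma) was under 0.05 in 2 of 14 alternatives. It was 0.0311 with an FDR of at most 0.001 and 0.0447 with the replicate number as a block (limma). Over these alternatives the fold change ran from 1.13 without MS replicate 2 to 2.6 with a pseudocount of 0.1. With each library left out, its highest value was 2.52, without LW replicate 1. The only loop found in more than 1 library spanned 200 kb to a bin without a gene end, at 2.09 in LW replicate 1 and 2.74 in MS replicate 1.

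The 3 basic helix-loop-helix genes had no loop, but their surroundings differed. For TWIST1 (chr9:88286911-88290131) the nearest anchor of any loop lay 441.9 to 551.9 kb away, and no loop spanned the gene. TCF21 (chr1:29975280-29978273) had an anchor 35.3 kb away in every library, and 1 loop spanned it in LW replicate 2 and in MS replicate 2. TWIST2 (chr15:138228640-138276341) had an anchor 1.3 kb from its end in 3 libraries. That anchor belonged to a 5-kb loop within the gene, at 4.63 and 4.94 in LW against 3.56 in MS replicate 2, and a 5-kb window in place of 1 kb would count it.

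For TBX15 (chr4:101918891-102032280) the loops depended on where the gene was taken to start. At its RefSeq ends it had 2 and 1 loops in LW against 2 and 2 in MS, with scores of 5.36 and 10.6 in LW against 7.09 and 16.8 in MS. The RNA lists place the start of the TBX15 RNA 3.4 kb further inside the gene, in the bin 101920001-101925000. From that bin ran 7 and 13 loops in LW against 9 and 9 in MS, with scores of 125.0 and 405.2 in LW against 119.9 and 236.3 in MS. This alternative was chosen after seeing the data. Those scores would place TBX15 at the 98.8 to 99.7 percentile of genes with a loop, with the breeds overlapping and LW replicate 2 the highest library.

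A loop from the start of the TBX15 RNA reached 580 to 585 kb, into the long non-coding RNA gene LOC110260334. Its strength was 31.5 and 160.7 in LW against 37.8 and 60.3 in MS, with the anchor of MS replicate 2 shifted by 1 bin. It was the strongest loop from that start in every library except LW replicate 1, where a 45-kb loop had 37.0. A loop of 130 kb ended beyond the upper end of the gene, in bin 102050001-102055000, at 29.2 and 78.5 in LW against 23.4 and 42.4 in MS. A contact 40 to 45 kb into the gene had strengths of 37.0 and 71.1 in LW against 25.8 and 54.6 in MS. In all 3 contacts the order was LW replicate 2, MS replicate 2 and then the replicate 1 libraries, and the breeds overlapped. LW replicate 2 and MS replicate 2 had fewer loops in all than the replicate 1 library of the same breed, and their median loop strengths were higher, at 4.24 and 4.33 against 3.87 and 3.65. The part of this difference in the order of the TBX15 libraries was not tested.

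Over the 6 genes with loops, few loops were shared exactly between libraries. Of the 76 different loops, 50 were in LW, 51 in MS and 25 in both. A share of 65.8% was in 1 library only, against 65.9% of the 59861 loops at any gene end. The share in all 4 libraries was 1.32%, against 4.59%. With a shift of 1 bin allowed, the loops made 57 contacts, 8 of them in all 4 libraries. The median distance was 90 kb for these genes and 60 kb for all loops at gene ends. The far anchor lay within 1 kb of another gene end in 12 of the 76 loops, and within the gene itself in 21.

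No breed difference passed for loop score. Of the 6 genes tested, 0 had an adjusted p under 0.05 and 0 an unadjusted p under 0.05 (limma, Benjamini-Hochberg), and the background was 0.00% of 15431 genes by the adjusted p and 5.33% by the unadjusted p. The libraries did not overlap in score before normalization, with LW higher, for MEOX1, OSR1 and OSR2, that is 3 of 6 genes against 21.1% of all genes tested, and for 0 of 6 with MS higher, against 7.02%. The LW lists held more loops than the MS list of the same number, and the part of this in these 3 genes was not tested. The log2 fold change was −0.38 with a standard error of 0.81 for PRRX1, −0.80 with 0.83 for MEOX2 and −0.85 with 0.92 for TBX15. The value was above 0 for 3 of 6 genes, against 51.3% of all genes, and the median over the 6 was −0.07 against 0.02 over all genes. In whole tissue, more loops per cell and more cells of a type carrying the loop cannot be told apart. An exact permutation test of 2 against 2 libraries cannot give a two-sided p below 0.333.

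Marker genes of the same and of other cells gave the setting for these scores. Among 20 fibro-adipogenic progenitor and fibroblast genes, such as PDGFRA, DCN and COL1A1, 14 and 15 had a loop in LW against 11 and 13 in MS. Among 12 myogenic factors and satellite cell genes 9 and 9 had one in LW against 8 and 8 in MS, and among 5 endothelial genes 4 and 3 in LW against 3 and 5 in MS. Of the 7 E-protein partners and ID inhibitors of the helix-loop-helix factors, 7 and 6 had a loop in LW against 5 and 5 in MS, whereas TWIST1, TWIST2 and TCF21 themselves had none. Of 10 relatives of the 9 genes, such as PRRX2, TBX18 and MSC, 5 and 4 had one in LW against 3 and 4 in MS. No gene of any of these lists had an adjusted p under 0.05 (limma, Benjamini-Hochberg). At a log2 fold change over 1.5 with an unadjusted p under 0.05, where the background was 2.83% higher in LW and 2.50% higher in MS, the counts higher in LW and in MS were 0 and 1 for the fibroblast list, 1 and 0 for the myogenic list, 1 and 1 for the relatives, and 0 and 0 for the other lists. The part of cell composition in the values of the 9 genes was not tested.

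In the GRID-seq lists, TBX15 was the only gene of the 9 whose own transcript was listed as a chromatin-associated RNA. It appears as ENSSSCG00000006725 (chr4:101922251-102032277, plus strand), which covers 97.0% of TBX15. It had 14519 and 15862 reads in LW against 11839 and 13822 in MS, or 1774.6, 1595.2, 1650.6 and 1473.3 per 1000000 listed RNA reads. The raw reads were higher in LW, and after scaling to the reads of each library the breeds overlapped. It ranked 109 of 571 and 132 of 681 listed RNAs in LW against 106 of 519 and 122 of 649 in MS.

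The TBX15 RNA had its highest signal per bin over its own gene. Its summed signal, the deposited background-corrected value added over the 22 bins within 5 kb of the gene ends, was 7564.6 and 7190.9 in LW against 6949.9 and 7635.3 in MS. The breeds overlapped. Other RNAs added little, and the total RNA signal at TBX15 was 7572.3, 7233.5, 7056.9 and 7814.2. The log2 fold change was 0.08 with a standard error of 0.88 (limma, Benjamini-Hochberg adjusted p = 0.98). This total was at the 94.0 to 94.7 percentile of the genes with any RNA.

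A smaller part of the TBX15 RNA signal was local than for most chromatin-associated RNAs. The share within 10 kb of its gene was 41.2% and 36.4% in LW against 49.3% and 44.9% in MS. Over the 308 RNAs listed in all 4 libraries the median local shares were 84.7%, 78.7%, 91.3% and 84.2%. Nearly all of the rest lay elsewhere on chromosome 4, at 58.4% and 63.6% of the signal in LW against 50.7% and 55.1% in MS. Bins on other chromosomes numbered 23 in LW replicate 1 and 0 in the other libraries.

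The spread was uneven around the gene and between the breeds. From 10 to 500 kb after the end of the gene lay 27.6% and 33.8% of the signal in LW against 33.2% and 33.6% in MS. From 10 to 500 kb before the start lay 15.3% and 15.5% in LW against 7.9% and 9.25% in MS, with no overlap of the breeds. LW was higher in that share, without overlap, for 37.0% of the 308 RNAs, and MS was higher in local share, without overlap, for TBX15 and for 43.2% of the RNAs. The TBX15 differences thus had the direction that was the more frequent one over all RNAs.

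**Figure D3:**
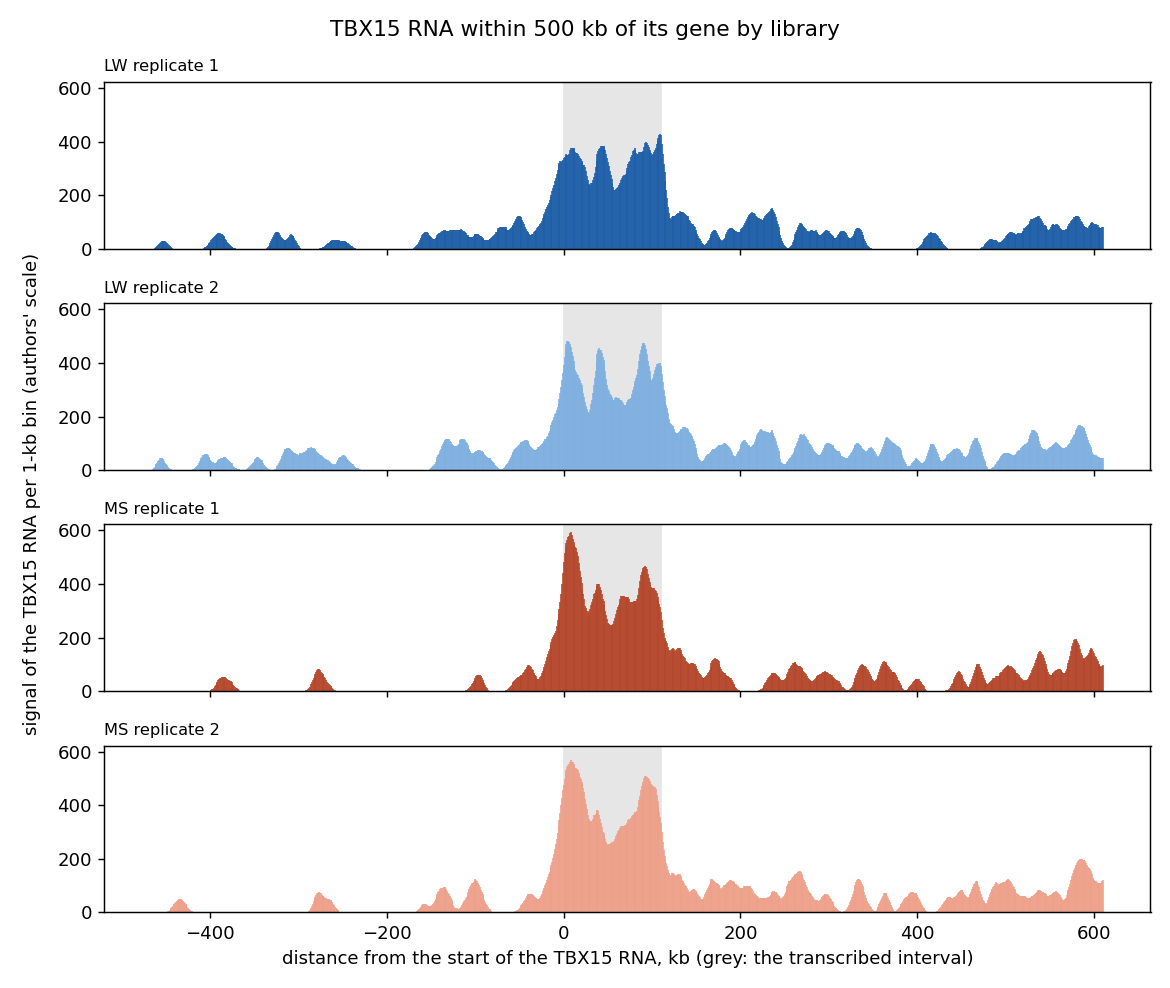
Signal of the TBX15 RNA in each 1-kb bin (y axis, the authors' background-corrected scale, the same for all panels) by distance in kb from the start of the RNA, with 1 panel per GRID-seq library and the transcribed interval in grey. In every library the signal is highest over the gene, between 429.8 and 592.6 at its peak, and more of it lies downstream than upstream of the gene.

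The TBX15 RNA covered most of the region its loops span. Of the 126 bins of 5 kb within 730 kb downstream of its start that were no far anchor of these loops, 111 and 126 in LW against 113 and 125 in MS held its signal, so its presence at a far anchor says nothing about the loop. On the bin 585 kb away the signal was 531.6 and 826.8 in LW against 733.8 and 984.5 in MS, and on the bin 130 kb away it was 678.4 and 716.2 in LW against 792.7 and 701.6 in MS. On the bin 730 kb away, at SPAG17, it was 306.8 and 310.3 in LW against 41.3 and 462.8 in MS. The signal is smoothed over neighbouring bins, so these anchors are not independent of one another, and BL-HiChIP and GRID-seq libraries of a number are not known to be from the same animal.

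The RNAs reported here at the ends of the 9 genes were 11, in 25 pairs of a gene and an RNA. Besides the TBX15 RNA at its own gene, 6 pairs joined a gene to an RNA of the same chromosome and 18 to an RNA of another chromosome. An RNA was present at 7 and 4 of the 9 genes in LW against 7 and 8 in MS, and over all genes at 45.4% and 52.9% in LW against 52.8% and 59.9% in MS. Of the 25 pairs 9 were seen in 1 library, 13 in 2, 2 in 3 and 1, TBX15 with its own RNA, in all 4.

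**Figure D4:**
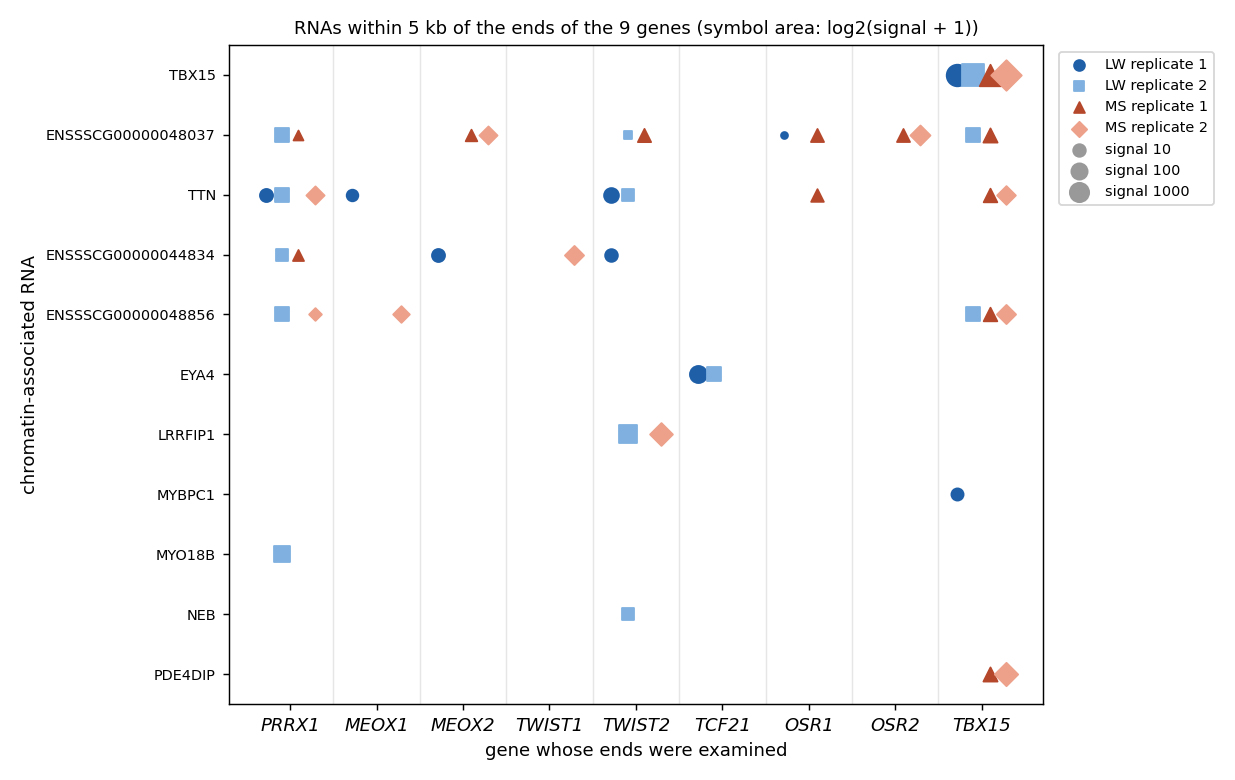
The 11 chromatin-associated RNAs reported here (rows) on bins within 5 kb of the ends of each gene (columns), with 1 symbol per GRID-seq library and symbol area rising with log2(signal + 1), where an absent symbol means that the RNA is not listed there. EYA4 RNA at TCF21 appears in LW libraries only, and the TBX15 RNA at its own gene is the largest signal in every library.

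Among the RNAs reported here, the largest signals after TBX15 itself came from genes on the same chromosome, 283.6 to 1055.6 kb away. MS replicate 1 was the exception, where ENSSSCG00000048037 of chromosome 3 had 25.7 at TBX15. At TCF21 the RNA of EYA4, a transcriptional coactivator and phosphatase gene 283.6 kb away, had a summed signal of 186.1 and 41.5 in LW. It was not listed there in either MS library. No other RNA was listed at TCF21. At TWIST2 the RNA of LRRFIP1, a gene 789.3 kb away whose protein binds Flightless-1, had a signal of 206.6 in LW replicate 2 and 95.4 in MS replicate 2. In the other libraries it was not listed there. It was therefore present once in each breed, and TWIST2 as a whole had 50.7 and 226.6 in LW against 14.5 and 95.4 in MS. At TBX15 the RNA ENSSSCG00000024481, 1055.6 kb away, had a signal of 25.4 and 123.2 in MS and was not listed in LW. It is LOC100624559 in RefSeq and PDE4DIP (myomegalin) in the Ensembl gene name table.

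The unnamed RNA ENSSSCG00000048037, from chromosome 3, was at 1 and 3 of the 9 genes in LW against 6 and 2 in MS. Over all genes it was at 9.96% and 17.9% in LW against 21.8% and 25.6% in MS. At OSR2 it had 12.8 and 26.1 in MS and was not listed in LW. At MEOX2 it had 5.59 and 11.4 in MS and was not listed in LW. At TBX15, PRRX1 and TWIST2 it was present once in each breed, in LW replicate 2 and MS replicate 1, at 16.2 and 25.7, at 14.1 and 2.06, and at 0.415 and 14.5. At OSR1 it was at 0.0397 in LW replicate 1 and 13.1 in MS replicate 1.

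The RNA of TTN, which encodes the giant sarcomere protein titin, was at 3 and 2 of the 9 genes in LW against 2 and 2 in MS. Over all genes it was at 12.3% and 12.0% in LW against 22.4% and 18.6% in MS. At PRRX1 it had a signal of 13.2 and 12.9 in LW against 0 and 11.9 in MS. At TWIST2, which lies on the same chromosome, it had 39.9 and 12.6 in LW and was not listed in MS. At TBX15 it had 18.3 and 15.0 in MS and was not listed in LW. The direction of TTN thus differed between these genes, and that difference was not tested.

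Other unnamed RNAs were scattered. ENSSSCG00000048856 was at 0 and 2 of the 9 genes in LW against 1 and 3 in MS, and over all genes at 3.40% and 4.95% in LW against 7.12% and 11.9% in MS. It was at TBX15 in 3 libraries, at 26.4 in LW replicate 2 and 18.3 and 17.6 in MS, and at PRRX1 in LW replicate 2 and MS replicate 2, at 24.2 and 1.13. ENSSSCG00000044834 was at 2 and 1 of the 9 genes in LW against 1 and 1 in MS, and over all genes at 11.1% and 9.54% in LW against 7.51% and 6.44% in MS. It was found at PRRX1 in LW replicate 2 and MS replicate 1, at 10.2 and 3.95, and was the only RNA at TWIST1, at 17.6 in MS replicate 2. It was also the largest signal at MEOX2 in LW replicate 1, at 12.9. The largest RNA signal at PRRX1 in LW replicate 2 was from MYO18B, an unconventional myosin gene, at 65.5, and in the other libraries MYO18B was not listed there. Over all genes MYO18B RNA was at 0.975% and 1.36% in LW against 0.691% and 1.04% in MS.

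Compared between breeds, the total RNA signal, summed over every listed RNA, gave no call by the adjusted p. The log2 fold change was above 0 for 4 of 9 genes, against 48.3% of all genes. The libraries did not overlap for PRRX1 and TCF21, with LW higher, 2 of 9 genes against 16.4% of all genes tested, and for MEOX1, OSR1 and OSR2, with MS higher, 3 of 9 against 20.4%. Of the 9 genes 0 had an adjusted p under 0.05 and 3 had an unadjusted p under 0.05, and the background was 0.00% and 15.7% of 23749 genes (limma, Benjamini-Hochberg). The 3 were TCF21, higher in LW (unadjusted p = 0.0141, adjusted p = 0.201), and OSR2 and OSR1, higher in MS (unadjusted p = 0.0125 and 0.0489, adjusted p = 0.195 and 0.316). Under the alternatives run, the unadjusted p stayed under 0.05 in 12 of 14 for TCF21 and 12 of 14 for OSR2 but in 5 of 15 for OSR1. It was lost for TCF21 without either MS library, and for OSR2 without either LW library. All 3 also passed a log2 fold change of 2, a threshold at which the background was 7.46% higher in LW and 8.22% higher in MS. At that threshold the counts higher in LW and in MS were 3 and 1 of 19 fibro-adipogenic progenitor and fibroblast genes tested, 1 and 0 of 12 myogenic genes, 0 and 0 of 10 muscle fibre genes, 1 and 1 of 5 endothelial genes, 0 and 2 of 7 E-protein and ID genes and 1 and 1 of 8 relatives. In these lists 0 genes had an adjusted p under 0.05 (limma, Benjamini-Hochberg).

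These 3 genes rested on RNAs that were absent or nearly absent from a breed. TCF21 and OSR2 entered the fit only through the breed in which they had a signal. Their values of 0 in the other breed show no spread between libraries. The alternatives largely reuse these same values, so the number of alternatives passed is no independent support. OSR1 had a total signal of 0.0397 and 0 in LW against 39.5 and 21.5 in MS. OSR2 had no listed RNA in LW and a total signal of 13.2 and 54.8 in MS. Quantile normalization set the 0.0397 of OSR1 to 3.83 before the fit, which moves the breeds closer on the log2 scale. OSR1 and MEOX1 had the higher loop scores in LW and the higher RNA signal in MS, without overlap of the libraries and with an adjusted p above the threshold. Each alone was found in 21.1% of all genes tested for loops and 20.4% of those tested for RNA. The share of all genes with both was not computed, so this pattern has no background. For OSR2 the loop scores overlapped once normalized, at 13.3 and 18.5 in LW against 11.4 and 15.2 in MS. MEOX1 had an RNA signal of 5.65 and 0 in LW against 19.5 and 28.5 in MS. PRRX1 had an RNA signal of 13.2 and 126.9 in LW against 7.0 and 13.0 in MS, a narrow gap, and its loop scores overlapped. The difference between the 2 assays was not tested.

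RNAs were also present at the far anchors of the loops. In LW 10 of 27 and 12 of 34 far anchors of the 9 genes held a listed RNA, and in MS 15 of 27 and 22 of 31. These totals include the far anchors of TBX15, all of which held its own RNA. They were 2 of 2 and 1 of 1 in LW against 2 of 2 and 2 of 2 in MS. The share over the far anchors of all genes was not computed, so the counts have no background. Anchors in neighbouring bins are not independent, because the signal is smoothed. For PRRX1 the counts were 1 of 8 and 6 of 12 in LW against 7 of 9 and 10 of 11 in MS. For MEOX2 they were 2 of 5 and 2 of 10 in LW against 2 of 9 and 6 of 12 in MS. The MS shares were higher for PRRX1 in both libraries, and those of MEOX2 overlapped. The MS libraries also had an RNA at a larger share of all genes than the LW library of the same number, and its part in this count was not tested.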

How the data were processed

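H3K27ac BL-HiChIP and GRID-seq lists of 4 libraries each, 2 per breed, were analysed. For BL-HiChIP the authors trimmed linkers with ChIA-PET2, aligned to Sscrofa11.1 with BWA-MEM, deduplicated with Pairtools and called loops per library with FitHiChIP from independent H3K27ac ChIP-seq peaks at 5 kb. The deposited loop value was read as an FDR, an adjusted p-value. For GRID-seq the authors mapped RNA and DNA ends and corrected for background. The deposited count was read as RNA reads and the deposited signal as a background-corrected value per 1-kb bin. The lists carry no column names, so these readings rest on the values. The submitters' processing notes name Trim Galore 0.4.5, Bowtie2 2.2.5, SAMtools 1.9 and MACS2 2.1.2.

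Genes were placed with a RefSeq table of the same build, in which strand is missing, and so either end could stand for the start. No sequences were used here. An item among the RNAs is not reported here, and sums and counts over every listed RNA include it. The 2 loops with a value of 0 were given the smallest positive value, and pairs of RNA and bin listed more than once were summed (1125 to 2036 per library). Scores were quantile-normalized over the 4 libraries, set on the log2(value + 1) scale, which understates changes of low genes, and compared with limma 3.58.1 in R 4.3.3 over all genes with a value in at least 1 library, with Benjamini-Hochberg adjustment. The study names DESeq2 for the loop score. It was not used because the score is not a count. The model was also run on simulated normal noise of the same spread for all genes, without list thresholds or normalization. It was therefore not tested on values as sparse as these. Tables and figures were made in Python 3.11.15 with numpy 2.4.6, pandas 2.3.3, scipy 1.17.1 and matplotlib 3.10.9.

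The 9 genes and the marker lists were chosen with earlier results of these data known. Named beside the 9 genes were genes at far anchors of loops in at least 2 libraries or of the strongest loop of a gene, up to 3 genes sharing most looped bins, RNAs in at least 2 libraries and the RNA of largest signal at each gene in each library. The comparison of looped bins left out genes with an end in the same bins as the gene itself. Alternatives varied the windows, the FDR, the gene ends, normalization, pseudocount, filters, the RNAs entered and the replicates.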

Additional observations from a re-analysis of the deposited data

How the results depend on the processing

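Of 212 alternative fold changes of the 9 genes, 0 had an adjusted p under 0.05 (limma, Benjamini-Hochberg) and 9 changed direction. The loop score of PRRX1 turned to 0.13 without LW replicate 1, and that of TBX15 to 0.27 with a 5-kb window. The RNA signal of MEOX2 turned to 0.03 with a 1-kb window and to 1.39 without LW replicate 2. The RNA signal of TBX15 turned to −0.03 with a 10-kb window, −1.20 with RNAs of other chromosomes, −0.06 when scaled to the library total, −0.18 without LW replicate 1 and −0.14 without MS replicate 2. Leaving out each library in turn, these fold changes ran from −0.85 to 0.13 for PRRX1 loops, −3.22 to 1.39 for MEOX2 RNA and −0.18 to 0.36 for TBX15 RNA. For the other 11 of 15 fold changes the direction held in every alternative run, but with each library left out the values moved widely: RNA of MEOX1 from −4.91 to −1.0, OSR1 from −5.69 to −2.82, PRRX1 from 1.15 to 2.82 and TWIST2 from 0.04 to 2.53, and loops of OSR1 from 1.13 to 2.52, MEOX2 from −1.32 to −0.23 and OSR2 from 0.01 to 0.49. The cause was not tested. Among these 11, RNA of TCF21 was 0 in both MS libraries and RNA of OSR2 was 0 in both LW libraries. RNA of TWIST1 was above 0 in MS replicate 2 alone. A direction could hardly change there, so its holding is no sign of stability for these 3.

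Over all genes, 436 passed the fold threshold of the study with the unadjusted p for loops higher in LW and 386 higher in MS, and for RNA 1772 and 1951. For loops these became 15 and 11 with the start of transcription alone, for which few genes have a strand, 862 higher in LW without normalization, 718 higher in LW when scaled to the library total and 957 higher in MS with a pseudocount of 0.1. For RNA they became 1039 and 876 with RNAs of the same chromosome. Genes at an adjusted p under 0.05, 0 in both assays, became 426 for RNA with RNAs of the same chromosome. Without a filter on low genes they became 64 for loops and 799 for RNA. That setting also enters genes at 0 in every library, 28210 genes in place of 15431 for loops and 23749 for RNA. Such genes have no spread and feed the spread that limma shares between genes. The 64 and 799 are therefore not comparable with the main counts. Leaving out each library gave 300 to 884 genes higher in LW and 448 to 876 higher in MS for loops, and 1377 to 3281 and 1649 to 3086 for RNA, with the lone library of a breed assumed to vary like the other breed. The extremes for loops were reached without MS replicate 1, without LW replicate 1, without LW replicate 2 and without MS replicate 2, in that order, and for RNA without MS replicate 1, LW replicate 2, LW replicate 1 and MS replicate 2.

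The replicate numbers name libraries only: no label ties them to a shared animal or day. The replicate differences of the breeds correlated across genes at 0.354 for loops and −0.00641 for RNA. With the replicate block, 696 and 593 genes passed the fold threshold for loops, higher in LW and in MS, and 1181 for RNA higher in LW. No gene of the 9 passed an adjusted p of 0.05 with the block. The loop score of OSR1, at 1.90, then passed the fold threshold and the unadjusted threshold of limma.

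The number of genes of the 9 with a loop in either library of a breed was 6 and 6, and with an RNA 7 in LW and 8 in MS. With RNAs of the same chromosome alone, the latter were 4 and 3, and without LW replicate 1 the LW count was 4. Among the 9 genes the lists give a strand for TBX15 alone, so a count from the start of transcription was not made. The score of TBX15 from the bin of its RNA start was an alternative added after seeing the data.

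With 2 libraries per breed and values that are already thresholded, an absent loop or RNA is one below the threshold of its list, not shown to be missing. The lists hold no contact counts, so the depth behind a loop is unknown.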
